A study of Homo sapiens with 36 samples.

Results

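The genes described here are 9 genes of the MHC class I presentation pathway: the heavy chains HLA-B, HLA-C, HLA-E and HLA-F, the light chain B2M, the peptide transporter subunit TAP1, the loading chaperone TAPBP (tapasin) and the immunoproteasome subunits PSMB8 and PSMB9. They were taken by symbol from a table of raw RNA-seq counts with 28516 gene symbols and 36 libraries, and all 9 were among the 19689 genes with enough counts to be tested. The libraries come from 1 commercial line of human neural stem cells (hNSC), in which the transcription factor genes MEIS1 and MEIS2 were activated or disrupted with lentiviral CRISPR tools to find the genes that respond to each of them. RNA was collected 48 h after infection from pools of infected cells, not from clones. There were 6 libraries in each of 6 groups, and virus was applied by the dish, but whether the dishes of a group came from separate cultures is not stated in the sources used here, so p-values measure only the spread between these libraries, which may be technical.

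For overexpression (OE), cells received 3 viruses: 1 with the guide RNA, 1 with a Cas9 that binds without cutting and carries the VP64 activation domain (dCas9-VP64), and 1 with the MS2-p65-HSF1 activator, which binds the guide RNA. The groups were MEIS1-OE, MEIS2-OE and ctrl-OE, the last with a non-targeting guide. For knockout (KO), cells received lentiCRISPRv2, which carries a cutting Cas9 and the guide. MEIS1-KO and MEIS2-KO each received a mix of 2 guides, and ctrl-KO a non-targeting guide. OE and KO libraries therefore differ in the Cas9 protein, the added activator and the number of viruses. By the study's methods the volume of virus applied also differed. These differences cannot be told apart here.

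MHC class I molecules show peptides from inside the cell to T cells and natural killer cells. Proteins are cut into peptides by the proteasome, the TAP transporter moves the peptides into the endoplasmic reticulum, and tapasin helps to load them onto a heavy chain paired with beta-2-microglobulin. Interferons and NF-kB signalling raise these genes in many cell types, while neural cells are known for low class I levels.

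Libraries held between 15429985 and 22940493 counts, with a median of 20324720. The targeted genes followed their labels in the edgeR fit: MEIS1 was 4.12 higher on the log2 scale in MEIS1-OE and fell by 1.52 in MEIS1-KO, and MEIS2 was 5.19 higher in MEIS2-OE and fell by 1.10 in MEIS2-KO, each against its control. Each of the 9 neural stem cell markers listed, SOX1 and SOX2 among them, was tested, and their summed level lay between 2962 and 6108 CPM (counts scaled for library size) over the libraries.

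Of the 9 genes, 8 lie in the MHC region of chromosome 6 and B2M lies on chromosome 15. On GRCh37 (GENCODE annotation lifted to that build), the heavy chain genes are HLA-F at chr6:29690552-29706305, HLA-E at chr6:30457286-30461971, HLA-C at chr6:31236526-31239907 and HLA-B at chr6:31321649-31334844. PSMB8 is at chr6:32808494-32812456, PSMB9 at chr6:32811913-32827628, TAP1 at chr6:32812986-32821593, TAPBP at chr6:33267471-33282061 and B2M at chr15:45003556-45011049. The annotated model of PSMB9, on the plus strand, overlaps PSMB8 and contains all of TAP1, both on the minus strand, and PSMB8-AS1 and HLA-F-AS1 overlap PSMB8 and HLA-F in antisense. The libraries were stranded, but the sources used here do not say whether counting used the strand, so reads of these neighbours may be shared. HLA heavy chain genes are near-identical in places and vary between people, which makes their counts against one reference uncertain.

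Promoter windows were searched for short sequences of the kinds that class I genes are known for. Only exact strings were sought, so a window without a match may still hold a variant of the element. RefSeq promoter windows (GRCh38.p14, 250 bases before the start to 50 after it) matched 8 of the 9 genes, with 2 windows each for TAP1 and PSMB8. HLA-E had no window, so its promoter was not searched. The windows were searched on both strands for 4 motifs chosen after the sequences were seen: GAAANNGAAA, the core of the interferon-stimulated response element; GGGGATT, as in the NF-kB site called enhancer A; CCAATCAG, a CCAAT box; and TGACAG, the sequence that MEIS proteins are known to bind. Capitals mark the matches or their reverse complements, and positions are counted from the start as +1. The windows shown are those of the 5 genes whose system or MEIS comparison is described at length and that hold a match, with TAPBP, which has matches and passed in none of the comparisons by the settings used, beside them.
HLA-B: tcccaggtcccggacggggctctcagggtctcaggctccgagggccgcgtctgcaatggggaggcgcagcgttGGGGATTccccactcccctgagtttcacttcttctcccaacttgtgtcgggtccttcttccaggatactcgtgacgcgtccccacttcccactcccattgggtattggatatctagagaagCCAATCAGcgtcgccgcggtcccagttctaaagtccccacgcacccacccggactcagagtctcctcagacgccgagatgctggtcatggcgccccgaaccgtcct
HLA-C: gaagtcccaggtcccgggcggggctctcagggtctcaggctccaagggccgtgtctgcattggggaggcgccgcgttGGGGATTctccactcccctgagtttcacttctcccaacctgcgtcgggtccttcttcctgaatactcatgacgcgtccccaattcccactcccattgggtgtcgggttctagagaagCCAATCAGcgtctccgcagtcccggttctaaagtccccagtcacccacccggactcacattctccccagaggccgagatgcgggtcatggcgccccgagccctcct
B2M: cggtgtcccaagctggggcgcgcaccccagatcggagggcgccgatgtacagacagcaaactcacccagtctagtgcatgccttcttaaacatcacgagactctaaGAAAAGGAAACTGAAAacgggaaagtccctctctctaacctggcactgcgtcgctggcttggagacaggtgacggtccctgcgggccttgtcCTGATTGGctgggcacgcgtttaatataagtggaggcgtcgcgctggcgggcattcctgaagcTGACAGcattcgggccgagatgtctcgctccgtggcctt
TAP1: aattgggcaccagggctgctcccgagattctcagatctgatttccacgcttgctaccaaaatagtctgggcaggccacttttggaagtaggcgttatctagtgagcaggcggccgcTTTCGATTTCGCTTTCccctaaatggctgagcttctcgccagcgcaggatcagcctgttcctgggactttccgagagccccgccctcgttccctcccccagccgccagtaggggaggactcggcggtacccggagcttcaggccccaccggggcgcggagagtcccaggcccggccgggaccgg
TAPBP: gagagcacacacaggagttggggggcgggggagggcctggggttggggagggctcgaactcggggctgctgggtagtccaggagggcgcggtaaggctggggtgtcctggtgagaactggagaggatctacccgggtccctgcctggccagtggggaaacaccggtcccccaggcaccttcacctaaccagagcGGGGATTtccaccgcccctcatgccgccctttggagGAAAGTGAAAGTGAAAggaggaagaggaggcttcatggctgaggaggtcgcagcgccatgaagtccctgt
PSMB8: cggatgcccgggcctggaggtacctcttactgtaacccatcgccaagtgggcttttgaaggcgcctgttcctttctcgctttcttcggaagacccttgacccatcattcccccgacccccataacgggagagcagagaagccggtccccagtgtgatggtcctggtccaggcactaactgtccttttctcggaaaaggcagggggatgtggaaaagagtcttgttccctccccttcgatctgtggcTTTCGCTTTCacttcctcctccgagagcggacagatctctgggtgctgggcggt
The HLA-B window (chr6:31357130-31357429, minus strand) and the HLA-C window (chr6:31272043-31272342, minus strand) each held GGGGATT, at -177 and -173, and CCAATCAG at -56. The B2M window (chr15:44711267-44711566, plus strand) held a pair of overlapping GAAANNGAAA matches at -144 and -138, the reverse complement of CCAATCAG at -52 and TGACAG at 12 bases after the start. TAP1 (chr6:32853655-32853954, minus strand) held an overlapping pair of GAAANNGAAA on the opposite strand at -134 and -128, TAPBP (chr6:33314029-33314328, minus strand) a pair at -20 and -14 with GGGGATT at -56, and PSMB8 (chr6:32843998-32844297, minus strand) 1 match at -4. A gene was counted if any of its windows held a match, whereas the shares over all promoters are per window. GAAANNGAAA was found in 5 of the 8 genes (B2M, HLA-F, PSMB8, TAP1 and TAPBP) and in 3.57% of all 35116 promoter windows. GGGGATT was in 3 of them (HLA-B, HLA-C and TAPBP) against 3.55% of all windows, CCAATCAG in 4 (B2M, HLA-B, HLA-C and HLA-F) against 3.97%, and TGACAG in B2M alone against 15.8%. The starts of TAP1 and PSMB9 lie 488 bases apart on opposite strands, so their windows meet.

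Levels differed widely along the pathway. Per kilobase of annotated exon, B2M stood highest of the 9 with a mean of 34.0 CPM per kb over the 36 libraries, followed by HLA-E with 12.2, HLA-C with 8.30 and TAPBP with 4.40. TAP1 and HLA-B came next with 0.818 and 0.799 CPM per kb, and their ranges of 0.509 to 1.31 and 0.538 to 1.10 overlapped. PSMB8 (0.302), PSMB9 (0.0239) and HLA-F (0.00506) stood lowest on this scale. PSMB5 and PSMB6, the constitutive proteasome subunits whose places PSMB8 and PSMB9 take in the immunoproteasome, had 119 and 100.4 CPM per kb. The order held in the groups except where neighbours overlapped: in ctrl-KO, HLA-E (6.59 to 8.02 CPM per kb) and HLA-C (5.52 to 7.00) overlapped, whereas in ctrl-OE HLA-E (14.2 to 17.1) stood above HLA-C (8.47 to 12.9) in every library.

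**Figure D1:**
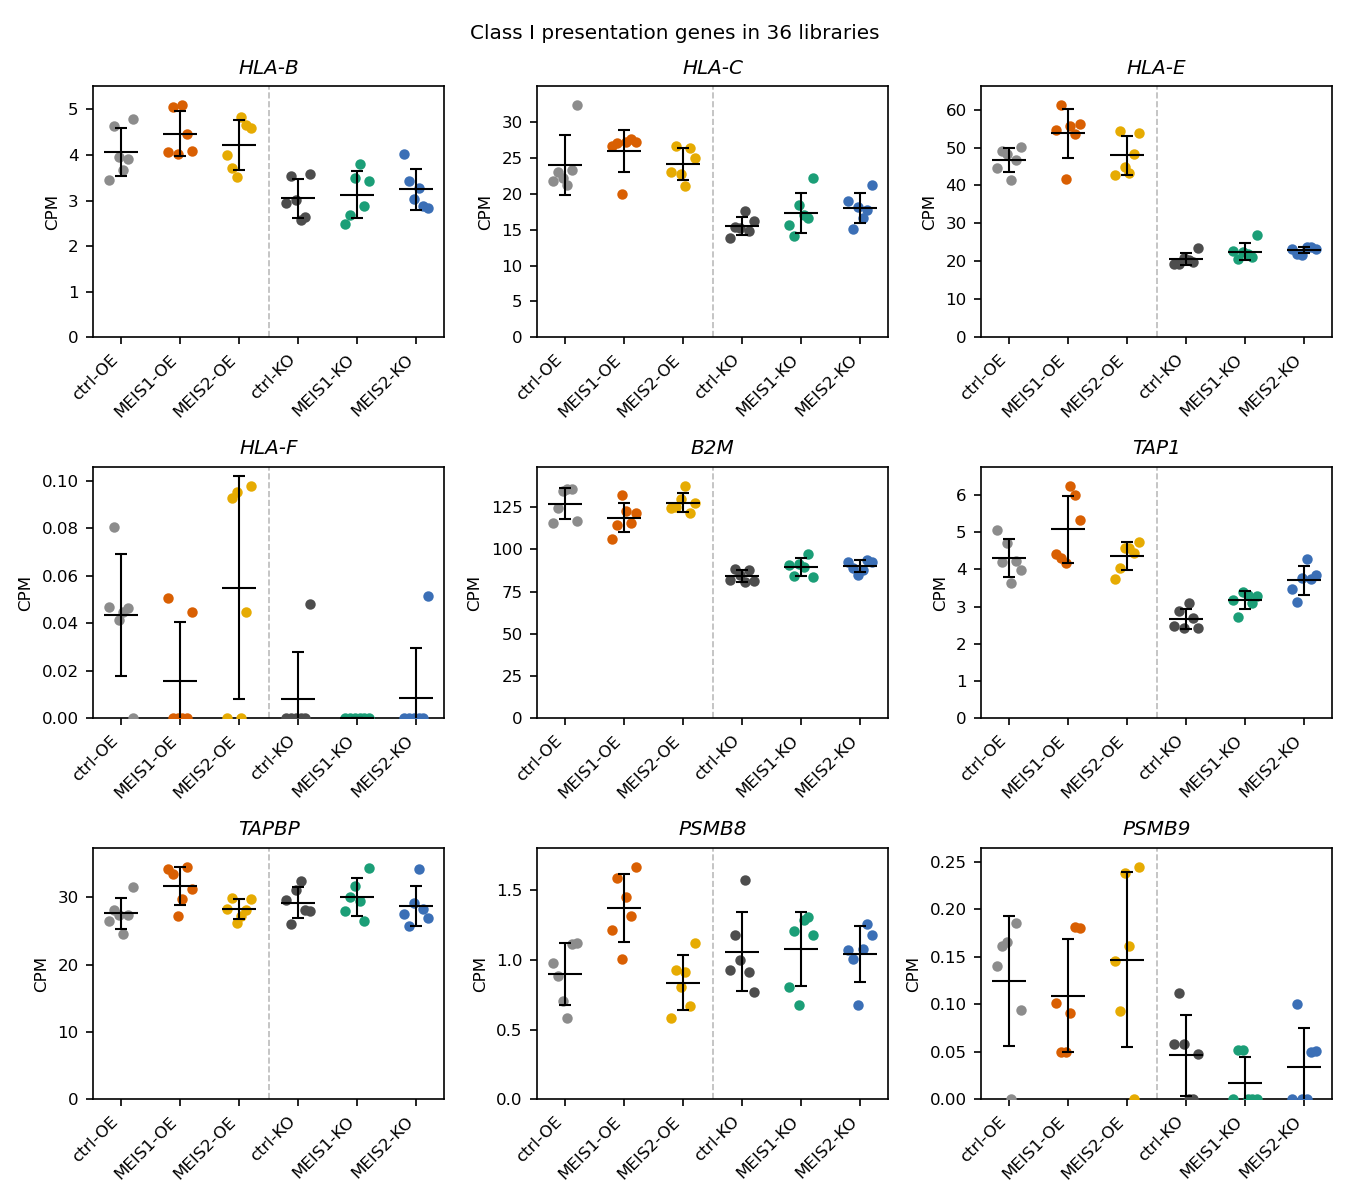
Each panel shows 1 gene in CPM (linear axis from 0), with 1 point per library, 6 libraries in each of 6 groups, and bars for the mean and SD; the dashed line separates OE from KO groups. HLA-E and B2M lie higher in every OE library than in any KO library, whereas TAPBP covers much the same range in both.

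The 2 CRISPR systems were first compared in cells with non-targeting guides. In ctrl-OE against ctrl-KO, HLA-E, B2M, HLA-C, TAP1 and HLA-B were higher, TAPBP and PSMB8 did not pass the test, and HLA-F and PSMB9 had too few counts for a firm value. These 5 of 9 genes passed at an adjusted p under 0.05 (edgeR quasi-likelihood test, Benjamini-Hochberg), all in the higher direction. Over all tested genes 51.4% passed in either direction and 27.5% in the higher one. With a log2 fold change above 0.58 as well, 4 of the 9 passed, against 13.0% of all genes. The median log2 fold change of the 9 genes was 0.63 and that of all tested genes 0.05.

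HLA-E, a heavy chain that presents leader peptides of other class I molecules to natural killer cell receptors, had a median of 47.6 CPM in ctrl-OE (lowest 41.5, highest 50.02) and of 20.1 CPM in ctrl-KO (lowest 19.3, highest 23.4). The groups lay far apart, with no overlap. The log2 fold change was 1.18 ± 0.07 (SE, n = 6 per group; edgeR adjusted p = 2.4e-16), or 2.27-fold, and 90.5% of tested genes had a lower value. HLA-C, a classical heavy chain, ranged from 21.2 to 32.3 CPM (median 22.6) in ctrl-OE and from 13.8 to 17.5 (median 15.3) in ctrl-KO. These ranges did not overlap either, and the log2 fold change was 0.63 ± 0.10 (edgeR adjusted p = 1.6e-06). HLA-B, the other classical heavy chain of the set, ranged from 3.46 to 4.78 CPM (median 3.93) against 2.57 to 3.57 (median 2.98). The lowest ctrl-OE library lay within the ctrl-KO range, and the log2 fold change was 0.42 ± 0.12 (edgeR adjusted p = 0.00242).

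B2M, the light chain of class I molecules, ranged from 115.8 to 135 CPM (median 129) in ctrl-OE and from 80.9 to 88.5 (median 83.5) in ctrl-KO. Its groups did not overlap, and the log2 fold change of 0.59 ± 0.05 had a 95% confidence interval of 0.49 to 0.69 (edgeR adjusted p = 3.3e-13). TAP1, which pairs with TAP2 to form the peptide transporter, ranged from 3.62 to 5.05 CPM (median 4.22) against 2.41 to 3.09 (median 2.59). Again no ctrl-KO library reached the lowest ctrl-OE library, and the log2 fold change was 0.69 ± 0.11 (edgeR adjusted p = 9.2e-07). HLA-C, HLA-E, B2M and TAP1 were thus the 4 of 9 genes with every ctrl-OE library above every ctrl-KO library, which 15.8% of all tested genes showed. In bulk RNA, a difference in the share of cells that express a gene cannot be told apart from a difference in RNA per cell.

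TAPBP, which bridges TAP and the heavy chain, ranged from 24.6 to 31.5 CPM (median 27.4) in ctrl-OE and from 26.0 to 32.4 (median 28.8) in ctrl-KO. The groups overlapped almost wholly, and the log2 fold change of -0.08 had a 95% confidence interval of -0.22 to 0.06 (edgeR adjusted p = 0.359). Scaled by library totals it was 0.07, since the median of all genes then moved from 0.05 to 0.20. PSMB8 ranged from 0.581 to 1.13 CPM (13 to 24 counts) against 0.773 to 1.57 (16 to 30 counts). Its log2 fold change of -0.24 had an interval of -0.64 to 0.16 (edgeR adjusted p = 0.329), so a change of the size seen for B2M was outside the interval in the higher direction. PSMB9, the other inducible catalytic subunit, had 17 counts in all of ctrl-OE and 5 in ctrl-KO, a ratio of depth-scaled counts of 3.14 with an exact 95% interval of 1.11 to 10.9 that covers counting error only. In the edgeR fit it did not pass (adjusted p = 0.0840). HLA-F had 6 counts against 1, a ratio of 5.54 with an interval of 0.672 to 255, and it did not pass in edgeR (adjusted p = 0.131), though it did without replicate number 6 (0.0226), the number of the only ctrl-KO library with a read on it.

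The same comparison of systems was made in the MEIS libraries, after the data were seen. In MEIS1-OE against MEIS1-KO, 6 of the 9 genes were higher and none was lower, against 28.2% of all genes that were higher and 51.9% that passed in either direction. The log2 fold changes were 1.25 ± 0.07 for HLA-E, 0.68 ± 0.10 for TAP1, 0.58 ± 0.10 for HLA-C, 0.51 ± 0.11 for HLA-B and 0.41 ± 0.05 for B2M, with edgeR adjusted p-values of 3.1e-17 to 0.000271. HLA-B, HLA-E, B2M and TAP1 had every MEIS1-OE library above every MEIS1-KO library, as had 13.8% of all genes. TAPBP (0.08) and PSMB8 (0.35) did not pass (edgeR adjusted p = 0.375 and 0.117), but did when scaled by library totals, at 0.21 and 0.48 (0.0138 and 0.0258). That scaling also moved the median of all genes from 0.05 to 0.18. In MEIS2-OE against MEIS2-KO, 5 of 9 were higher, against 26.7% of all genes in that direction and 49.2% in either. HLA-E was higher by 1.06 ± 0.07, B2M by 0.50 ± 0.05, HLA-C by 0.43 ± 0.10 and HLA-B by 0.39 ± 0.11 (edgeR adjusted p at most 0.00470), and the libraries of HLA-E and B2M did not overlap, which held for 16.9% of all genes. TAP1 differed by 0.23 ± 0.10 and did not pass (edgeR adjusted p = 0.0639), but passed without replicate number 4 (0.0423) and by library totals (0.00391). Library totals moved the median of all genes here from 0.03 to 0.15.

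PSMB9 passed in both of these comparisons on few reads. MEIS1-OE had 14 counts and MEIS1-KO had 2, a ratio of 6.78 (exact 95% interval 1.56 to 61.4), and MEIS2-OE had 18 against 4, a ratio of 4.65 (1.53 to 18.9), with edgeR adjusted p-values of 0.0185 and 0.0189. Both calls were lost when single replicate numbers were left out, without number 1, 5 or 6 in the first (0.0568, 0.0646 and 0.0944) and without number 1, 3, 4 or 6 in the second (0.0642, 0.115, 0.0521 and 0.0637). HLA-F had 2 counts against 0 and 7 against 1, the latter a ratio of 7.24 with an interval of 0.930 to 326. In MEIS2-OE against MEIS2-KO it did not pass in edgeR (adjusted p = 0.0574), but did by library totals (0.0419) and without replicate number 6 (0.0270). No MEIS1-KO library had a read on HLA-F.

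**Figure D2:**
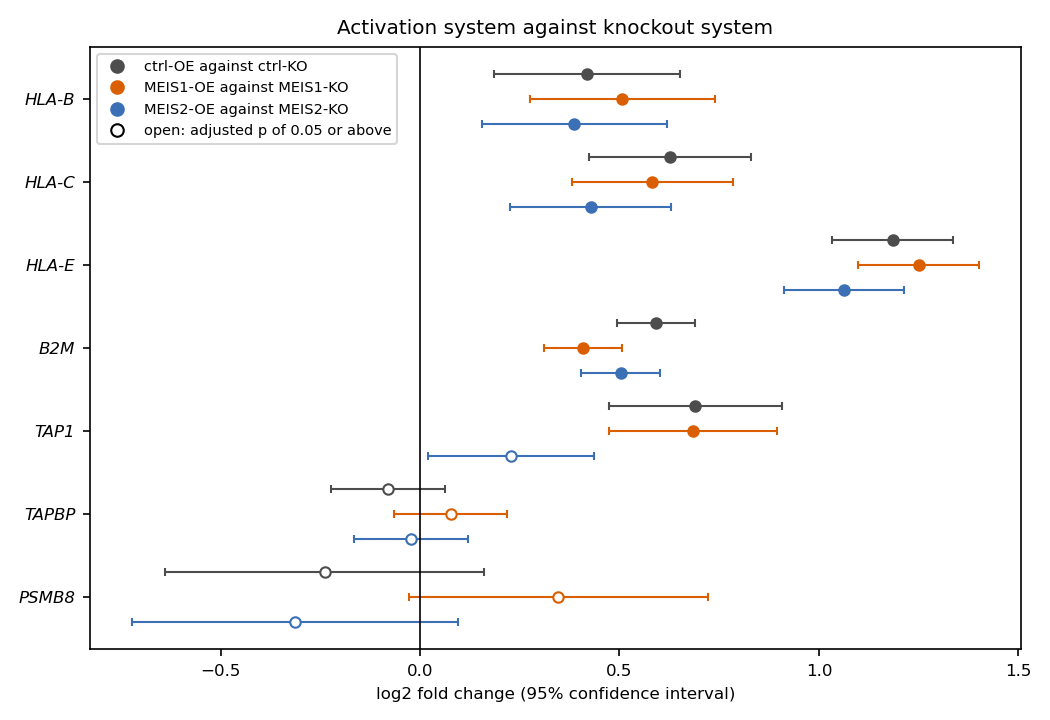
Points are log2 fold changes of OE against KO libraries with 95% confidence intervals from the edgeR fit, for the 7 genes with more than 10 counts in each library, filled where the adjusted p was under 0.05. HLA-E, HLA-B, HLA-C and B2M are filled in all 3 comparisons, and TAPBP and PSMB8 are open in all 3. Both passed in the MEIS1 libraries when scaled by library totals, which moved the median of all genes from 0.05 to 0.18.

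The rest of the pathway was read from gene lists in the same ctrl-OE against ctrl-KO comparison, in which 51.4% of all tested genes passed, with 27.5% higher. Of 13 tested class I relatives, 8 were higher and 0 lower, with a median log2 fold change of 0.65. Among them ULBP2, a ligand of the receptor NKG2D, was higher by 3.36 ± 0.23, MR1, which presents vitamin metabolites, by 1.80 ± 0.21, the pseudogene HLA-L by 1.14 ± 0.11, and ULBP1, MICA and ULBP3 by 0.93, 0.70 and 0.65 (edgeR adjusted p at most 2.2e-05). The other loading factors went the other way: 1 of 8 was higher and 5 were lower, with a median of -0.15, but only 2 were lower when scaled by library totals. Of the 5 trimming peptidases 1 was higher and 2 were lower, and of 19 proteasome genes 6 were higher and 2 lower, with a median of 0.04 (13 and 0 by library totals).

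Among the genes that act upstream, 9 of 18 regulators of class I genes were higher and 3 lower, with IRF1, an interferon-induced activator of class I promoters, higher by 0.59 ± 0.10 (edgeR adjusted p = 9.3e-06). NLRC5, the coactivator of class I genes, had a mean of only 0.264 CPM in ctrl-OE and 0.194 in ctrl-KO. Of 10 interferon receptors, kinases and their inhibitors, 7 were higher and 1 lower. Among them SOCS1, a feedback inhibitor of interferon signalling, was higher by 1.01 ± 0.22. Reads on interferon ligands were near 0, with IFNB1 and IFNA1 at 0 in all 36 libraries. Of 27 interferon-stimulated genes 12 were higher and 5 lower, with a median of 0.29. IFI35 (2.14), ISG15 (1.10), IRF7 (1.08), IFIT2 (1.05), LGALS3BP (0.87), IFIT3 (0.84) and BST2 (0.78) were higher, whereas IFI44L fell by 1.89, IFI27 by 0.98, TRIM22 by 0.86 and UBE2L6 by 0.61 (edgeR adjusted p at most 0.00141 for each). The induced genes thus did not move as 1 block.

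Of 8 tested class II genes, 6 were higher and 0 lower in ctrl-OE, beside the 27.5% of all genes that were higher, with a median of 1.13. CD74, the invariant chain, had a mean of 36.3 ± 2.51 CPM (SD, n = 6) in ctrl-OE and 9.67 ± 1.20 in ctrl-KO, a log2 fold change of 1.91 ± 0.07. HLA-DMB (3.05), HLA-DOA (1.41), HLA-DMA (0.86) and HLA-DPA1 (0.63) were higher as well (edgeR adjusted p at most 3.4e-05), and HLA-DRB1 passed with 6 counts against 0. HLA-DRA, the chain that antigen-presenting cells express most, had 0 reads in 31 of the 36 libraries.

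Markers of other cell types and of the stem cell state moved with these differences. Of the 9 neural stem cell markers 0 were higher and 7 lower in ctrl-OE, with SOX1 lower by a log2 fold change of -1.54 and SOX2 by -1.39, and their summed level was 3038 to 3955 CPM against 4396 to 4959. The 9 microglia and macrophage markers (8 tested) summed to 8.14 to 11.9 CPM in ctrl-OE and 3.32 to 3.48 in ctrl-KO. Of the 8 tested, CD68 (2.10), TYROBP (1.91) and AIF1 (0.57) were higher, 4 of the 8 had a positive log2 fold change, and CD68 made up most of the sum (mean 7.71 CPM against 1.79). P2RY12 was at 0 in all 36 libraries, PTPRC and CX3CR1 had at most 2 reads in any library, CSF1R at most 6, and ITGAM and CD14 at most 9, with each of the last pair at 0 in only 1 library. Endothelial markers (6 of 6 tested, 107 to 135 CPM against 169.8 to 185) and fibroblast and pericyte markers (7 of 7 tested, 448 to 634 against 808 to 1020) had lower sums in ctrl-OE, with 0 higher and 5 lower in the first list and 1 higher and 3 lower in the second (3 and 2 by library totals). Lymphocyte markers (6 of 7 tested) summed to 20.8 to 24.3 CPM against 17.1 to 21.3, nearly all of it CD4, with 4 of the 6 higher and 0 lower, and MS4A1 was at 0 in all 36 libraries. Of 6 tested neuronal markers 0 were higher and 3 lower, of 7 of astrocytes and the oligodendrocyte lineage 1 and 3, and of 4 of pluripotent cells 1 and 1. The part of these markers in the class I differences was not tested.

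**Figure D3:**
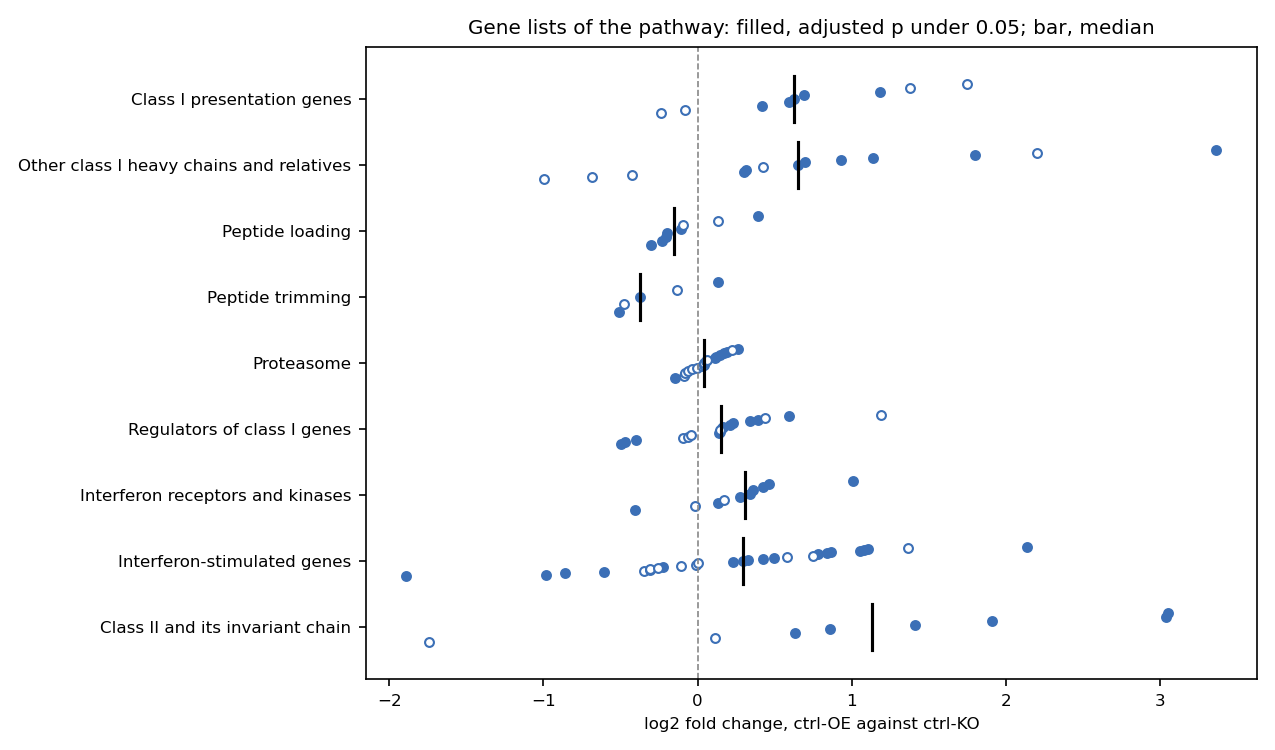
Each point is 1 tested gene of a list, placed by its log2 fold change in ctrl-OE against ctrl-KO (edgeR), filled where the adjusted p was under 0.05, with a bar at each list's median. The class I genes (median 0.63), their relatives (0.65) and class II genes (1.13) lie to the right of the loading factors (-0.15) and the proteasome (0.04).

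Within each CRISPR system the question was whether MEIS1 or MEIS2 moved the pathway. In MEIS1-OE against ctrl-OE, 1 of the 9 genes passed, against 9.09% of all genes. PSMB8 ranged from 1.01 to 1.67 CPM (20 to 37 counts; median 1.39) in MEIS1-OE, and from 0.581 to 1.13 (13 to 24 counts, median 0.935) in ctrl-OE. The ranges overlapped at their edges. The log2 fold change was 0.62 ± 0.18 (edgeR adjusted p = 0.0258), but without replicate number 2 or 4 the edgeR adjusted p was 0.133 or 0.142, and it was 0.0524 in a fit of these groups alone. HLA-E (0.20, adjusted p = 0.0697), TAPBP (0.20, 0.0686) and TAP1 (0.24, 0.124) did not pass by the settings used, though their unadjusted p was under 0.05, as was that of PSMB8. HLA-E passed with the stricter filter on low counts (edgeR adjusted p = 0.0482), with the replicate number as a block (0.0353) and without replicate number 3 (0.00890). TAPBP passed with that filter (0.0449) and without replicate number 3 or 6 (0.0376 and 0.0296). TAPBP ranged from 27.2 to 34.5 CPM in MEIS1-OE and HLA-E from 41.8 to 61.1, both overlapping ctrl-OE. B2M differed by -0.10, with a 95% confidence interval of -0.19 to 0.00.

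Other pathway genes also passed in MEIS1-OE, beside the 9.09% of all genes that did, and those named with a change under 0.58 were picked after their values were seen. ULBP1 was higher by 0.61 ± 0.12, TAP2, the partner of TAP1, by 0.38 ± 0.08, IRF2 by 0.34 ± 0.07 and PSME1, a subunit of the proteasome activator PA28, by 0.31 ± 0.04 (edgeR adjusted p at most 0.00141). The loading factor UGGT1 was lower by a log2 fold change of -0.19 ± 0.05 and the trimming peptidase TPP2 by -0.17 ± 0.05 (edgeR adjusted p = 0.0157 and 0.0370). Of 8 class II genes HLA-DOA was higher, by 0.37 ± 0.11 (edgeR adjusted p = 0.0231), and 0 were lower. Of 27 interferon-stimulated genes 3 were higher and 2 lower. TYROBP and CD68, of the 8 tested microglia and macrophage markers, were higher by 1.14 ± 0.21 and 0.40 ± 0.10, and this list's sum was 10.2 to 15.1 CPM in MEIS1-OE. Of the 6 tested lymphocyte markers 3 were higher (1 by DESeq2), with a sum of 28.3 to 35.8 CPM in MEIS1-OE against 20.8 to 24.3 in ctrl-OE, and of 6 neuronal markers 2 were higher (492 to 549 CPM against 420.3 to 600.3). Of 7 fibroblast and pericyte markers 1 was higher, and of 9 neural stem cell markers 1 was lower. The part of these markers in the PSMB8 value was not tested.

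In MEIS2-OE against ctrl-OE none of the 9 genes passed by edgeR (0 of 9, with 1.35% of all genes called), with 0 at an unadjusted p under 0.05 and 0 by DESeq2. The 95% confidence intervals were narrow for the well-counted genes: -0.09 to 0.10 for B2M, -0.11 to 0.18 for HLA-E, -0.11 to 0.18 for TAPBP, -0.19 to 0.21 for HLA-C and -0.18 to 0.22 for TAP1. HLA-B had an interval of -0.17 to 0.27 and PSMB8 of -0.51 to 0.31. Those of PSMB9 (-0.84 to 1.24) and HLA-F (-1.04 to 1.66) were wide. CD74 was the only pathway gene of the lists that passed, lower by a log2 fold change of -0.26 ± 0.07 (edgeR adjusted p = 0.0298).

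MEIS1-KO against ctrl-KO gave 0 of 9 calls by edgeR and 0 by DESeq2, with 1.46% of all genes called and 1 gene, TAP1, at an unadjusted p under 0.05. TAP1 ranged from 2.73 to 3.40 CPM in MEIS1-KO and from 2.41 to 3.09 in ctrl-KO. These ranges overlapped, and the log2 fold change was 0.25 with an interval of 0.02 to 0.48 (edgeR adjusted p = 0.371). The intervals of the other genes with more than 10 counts per library all held 0. No other gene of the pathway lists passed in MEIS1-KO.

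MEIS2-KO gave 1 call, TAP1, where 10.0% of all genes were called. TAP1 ranged from 3.12 to 4.27 CPM (median 3.74) in MEIS2-KO, against 2.41 to 3.09 (median 2.59) in ctrl-KO. Every MEIS2-KO library lay above every ctrl-KO library, as in 2.39% of all genes. The log2 fold change was 0.48 ± 0.11 (1.39-fold; edgeR adjusted p = 0.00403), and it passed in each alternative run, with adjusted p-values up to 0.0318. HLA-C (0.21, 0.205) and HLA-E (0.16, 0.200) did not pass after adjustment, and B2M differed by 0.09 ± 0.05 (edgeR adjusted p = 0.239). Of 27 interferon-stimulated genes 3 were higher and 1 (RSAD2) lower, but 5 were higher and 0 lower with RLE size factors, with DESeq2 and with library totals. Of 18 regulators 0 were higher and 4 lower (2 lower by library totals). CD74 was higher by 0.49 ± 0.08, HLA-L by 0.56 ± 0.11 and IFI35 by 1.28 ± 0.31, each passing in edgeR (adjusted p at most 0.00586). The trimming peptidase ERAP1 was lower by a log2 fold change of -0.18 ± 0.05 (edgeR adjusted p = 0.0226). CD74, HLA-L and ERAP1, under 0.58, were picked after the values were seen. TYROBP (1.76) and CD68 (0.63) were higher here too, with the microglia and macrophage sum at 4.16 to 5.48 CPM. Of 7 fibroblast and pericyte markers 3 were higher (913 to 1163 CPM against 808 to 1020 in ctrl-KO), and of 6 endothelial markers 2 were higher (205 to 253 CPM against 169.8 to 185). Of 9 neural stem cell markers 1 was higher and 3 were lower, of 6 neuronal markers 1 and 1, and of 6 lymphocyte markers 1 and 0. The part of these markers in the TAP1 value was not tested.

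**Figure D4:**
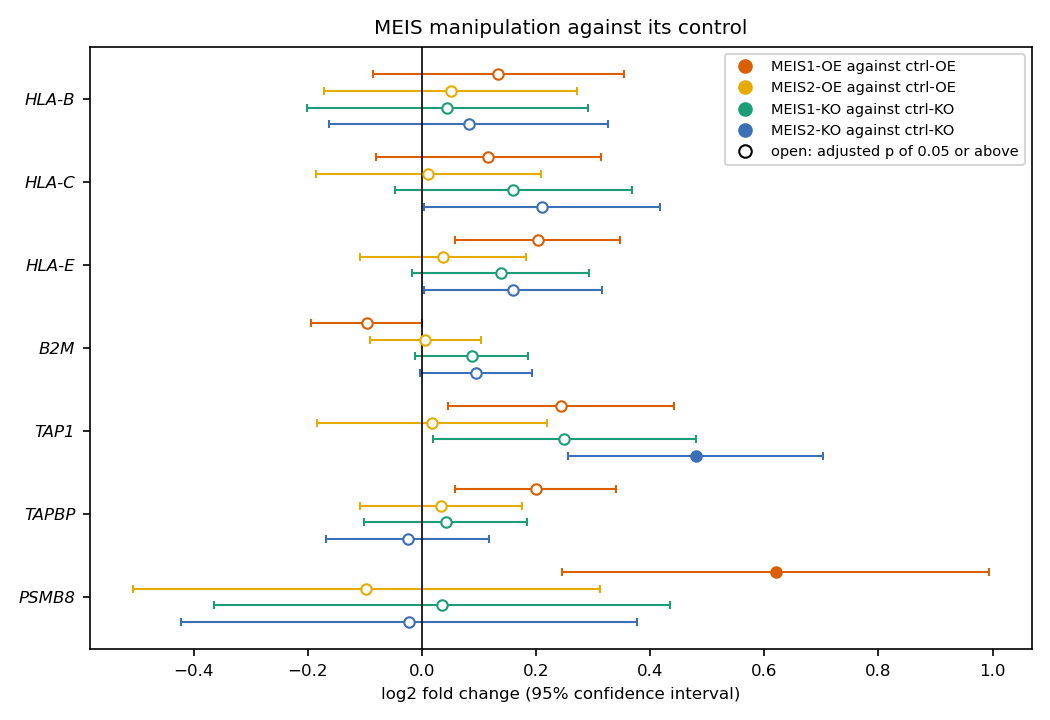
Points are log2 fold changes of each MEIS group against its control with 95% confidence intervals (edgeR) for the 7 genes with more than 10 counts in each library, filled where the adjusted p was under 0.05. TAP1 in MEIS2-KO (0.48) and PSMB8 in MEIS1-OE (0.62) are the only filled points.

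A gene that responds to MEIS1 or MEIS2 in opposite ways would stand out in the MEIS1 and MEIS2 contrasts, the OE effect minus the KO effect. None of the 9 genes passed in the MEIS1 contrast (0 of 9 by edgeR and by DESeq2, 2 at an unadjusted p under 0.05, 3.48% of all genes called), nor in the MEIS2 contrast (0 of 9 by both, 1 unadjusted, 2.56% of all genes). In the MEIS1 contrast PSMB8 had 0.58 ± 0.27 and B2M -0.18 ± 0.07 (edgeR adjusted p = 0.333 and 0.165). In the MEIS2 contrast TAP1 had -0.46 ± 0.15 (edgeR adjusted p = 0.0879), which is also the test of whether the difference between systems was smaller for TAP1 in the MEIS2 libraries than in the controls. These contrasts share their control libraries with the single comparisons.

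The paralogs were also compared directly. In MEIS1-OE against MEIS2-OE, PSMB8 alone passed (1 of 9, against 7.75% of all genes), with 1.01 to 1.67 CPM in MEIS1-OE and 0.584 to 1.12 in MEIS2-OE. The ranges overlapped at their edges, and the log2 fold change was 0.72 ± 0.19 (edgeR adjusted p = 0.0110). It did not pass without replicate number 1, 2 or 5 (edgeR adjusted p = 0.0594, 0.0585 and 0.0636). In MEIS1-KO against MEIS2-KO, 0 of 9 genes passed by edgeR and by DESeq2, 1 had an unadjusted p under 0.05 (TAP1, -0.23 ± 0.11), and 0.0152% of all genes were called.

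The genes most like the set were found by Pearson correlation with the mean of the 9 genes' standardised log2 CPM over the 36 libraries. EEF1A2, a translation elongation factor, had an r of 0.955, TIMP1, an inhibitor of metalloproteinases, 0.954, TENC1 0.951, SCARF1, a scavenger receptor, 0.9503 and SH3BP1 0.949. All points share the split into 18 OE and 18 KO libraries, and within each of these the r fell to 0.797 to 0.855 and 0.637 to 0.763. EEF1A2, at the head of the list, had a mean of 24.8 CPM in ctrl-OE and 37.4 in MEIS1-OE but 4.50 in ctrl-KO and 5.92 in MEIS2-KO, a wider gap between the systems than that of any of the 9 genes with more than 10 counts per library.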

How the data were processed

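Stranded poly-A libraries (36 in all) were sequenced in paired-end mode with reads of 100 bases. The authors deposited 1 table of raw read counts per gene symbol, from reads aligned to hg19 (GRCh37). Their processing notes name STAR 2.7.0a and Trimmomatic 0.39, and the series' design text names STAR 2.4.2a and HTSeq 0.6.0. The annotation and the strand setting of counting are not given in the sources used here.

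Groups and replicate numbers came from the sample labels. Genes with at least 10 counts in all were kept (19689 of 28516). Counts were fitted in 1 model of 6 groups with edgeR 4.0.16 (TMM factors, quasi-likelihood test, R 4.3.3), and p-values were adjusted by Benjamini-Hochberg over all tested genes. A call is an adjusted p under 0.05. CPM used the TMM-scaled totals. Errors are SE for log2 fold changes and SD for means. The exact intervals of count ratios cover counting error only. On simulated data for MEIS1-OE against ctrl-OE (19689 genes), edgeR recovered 94 of 100 genes changed by 1.5-fold and 99 of 100 changed by 2-fold. Among its 207 calls 14 were false. The changed genes were drawn only from genes with higher mean counts than PSMB8, PSMB9 and HLA-F, so this recovery does not apply to those genes.

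All 9 genes are named, though not each of them in every comparison. Other genes of the pathway lists were named where they passed with an absolute log2 fold change above 0.58, unless stated otherwise. This holds for ctrl-OE against ctrl-KO and for each MEIS group against its control. Cell type markers were named only in part, so unnamed ones also passed beyond 0.58. The 5 genes most alike by correlation of log2(CPM + 0.1) were named too. The genes, lists and motifs were chosen with earlier results of these data known. Alternatives were DESeq2 1.42.0, other size factors and filters, the replicate block, fits of the compared groups only and leaving out replicates. Library totals without TMM, the library of lowest total left out and the comparisons of systems in MEIS libraries were added after seeing the data. Libraries of a group differed beyond counting noise (chi-square per degree of freedom 2.82 or more), so none was merged.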

Additional observations from a re-analysis of the deposited data

Results flagged for a closer look

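Single libraries stood apart from the other 5 of their group in 5 of 54 sets of values (the gap to the nearest library over the group's range, above Dixon's critical value), where chance gives about 1 in 20. For the pair of HLA-F sets the gap fills the range by construction, since 1 library had a single read, so only 3 of the 5 can be read, which is near the number chance gives. HLA-C was at 32.3 CPM in ctrl-OE replicate 6, with the next library at 23.2, and at 19.98 CPM in MEIS1-OE replicate 3, with the next at 26.7. HLA-E was at 26.9 CPM in MEIS1-KO replicate 6, with the next at 22.6. HLA-F was at 0.0483 CPM in ctrl-KO replicate 6 and at 0.0514 in MEIS2-KO replicate 6, each a single read where the other 5 libraries had 0.

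PSMB8 differed between MEIS1-OE and MEIS2-OE, compared directly, with a log2 fold change of 0.72 (edgeR adjusted p = 0.0110). The call was lost without replicate number 1, 2 or 5 (edgeR adjusted p = 0.0594, 0.0585 and 0.0636). Its counts were 12 to 37 per library.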

How the results depend on the processing

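No log2 fold change of the 9 genes that had been called changed sign under any alternative. The number called in MEIS1-OE against ctrl-OE, 1 by the settings used, was 3 with the filterByExpr filter, 2 with the replicate block, 0 in a fit of these groups alone, and 0 to 3 when 1 replicate number was left out. Calls over all tested genes were 1790 of 19689 by the settings used, 1819 of 15194 with filterByExpr and 2044 of 19689 with the block. The fit of these groups alone called 1263 of 18401, and leaving out 1 replicate number gave 1152 to 2133. In MEIS1-OE against MEIS2-OE the number of the 9 genes called was 0 to 1 when 1 replicate number was left out, beside 1017 to 1997 of all genes. All other counts of called genes stayed within 1.5 times. HLA-E and TAPBP in MEIS1-OE passed with filterByExpr (edgeR adjusted p = 0.0482 and 0.0449), which drops HLA-F and PSMB9, and without replicate number 3 (0.00890 and 0.0376). The cause was not tested. With library totals, 8 of the 9 genes were called in MEIS1-OE against MEIS1-KO, beside 11043 of all 19689 tested genes. In MEIS2-OE against MEIS2-KO 7 were called, beside 10488 of 19689. Over single genes, 1326 values kept their side of the threshold, 13 gained a call and 13 lost one. Same-numbered libraries deviated together only slightly (mean correlation 0.0361, over 0.1 in 16 of 90 pairs, against -0.00732 between other numbers). The numbers were not taken as pairs in the settings used. The replicate block raised calls over all genes in most comparisons, such as from 287 to 458 of 19689 in MEIS1-KO against ctrl-KO. Depth limits HLA-F and PSMB9 most, with at most 2 and 5 reads in a library.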
